A study of Mus musculus with 6 samples.

Results

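Caveolae are small flask-shaped pits of the plasma membrane that are abundant in endothelial cells (ECs) of capillaries. Their coat is built of caveolins, which insert into the inner leaflet of the membrane, and of cavins, which bind to the caveolins from the cytosol, and the ATPase EHD2 sits at the neck of the pit and holds it at the surface. Where endothelium is specialized for exchange, caveolae and fenestrae are bridged by a thin diaphragm made of PLVAP, a protein also known as the antigen of the MECA-32 antibody. The transcripts of 8 genes of this system were followed in sorted thymic ECs. They are the diaphragm gene Plvap, the caveolin genes Cav1 and Cav2, the cavin genes Ptrf (cavin-1), Sdpr (cavin-2) and Prkcdbp (cavin-3), and the EHD genes Ehd2 and Ehd4. The 8 genes were picked by name among the 23943 gene symbols of the tables, and each was found as 1 row in every library.

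The study asked which thymic ECs carry the features of vessels through which progenitors enter the thymus. Female wildtype C57BL/6 mice, 4 to 6 weeks old by the labels (the study's methods give a slightly older range for its mice in general), provided the thymi, from which CD31+CD45-EpCAM- cells were sorted to a purity of at least 90% into Ly6C+Selp- (type I), Ly6C+Selp+ (type II) and Ly6C-Selp+ (type III) ECs, and RNA of 2 libraries per subset, 6 in all, was sequenced. The labels name no treatment and no engineered allele, and Selp is the gene of P-selectin. Nothing says whether the 2 libraries of a subset came from separate mice, so the p-values measure the spread between these libraries, which may be technical in part. The 3 comparisons also share their libraries with each other. The values are FPKM, fragments per kilobase of transcript, scaled by the mapped fragments of the library, and each carries a 95% interval computed by the authors for its library. Read back from these intervals as if they held counting error alone, the fragments summed to between 1452476 and 2423171 per library, and between 150 and 14712 fragments lay behind a value of 1 of the 8 genes, which gave intervals of ±1.65% to ±16.3% of the value.

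The sort was visible in the transcripts, with Selp at an FPKM of 6.54 ± 1.89 (SD, n = 2) in type I and 591 ± 92.8 (SD, n = 2) in type III ECs, and Ly6c1 at 851 ± 225 (SD, n = 2) and 79.7 ± 28.2 (SD, n = 2). The 10 endothelial markers summed to 2460 or more FPKM in every library. Markers of other cells were present at lower levels. The summed FPKM of 8 pericyte or smooth muscle markers lay between 199.5 and 495 in type I, 406 and 522 in type II and 170.5 and 239 in type III libraries, and that of 10 leukocyte markers between 45.4 and 278, between 65.8 and 126, and between 129.5 and 484 in the same order. The 6 fibroblast markers summed to 161 to 263, 261 to 427 and 165 to 168, and the 6 thymic epithelial markers to at most 78.9 in any library. The 4 adipocyte markers, from a cell type rich in caveolae, summed to at most 1.81, and none of them passed the filter on low values. The summed FPKM of 4 lymphatic markers was 18.7 to 23.9 in type I, 9.85 to 12.4 in type II and 13.3 to 30.1 in type III libraries. In type III, Lyve1 had 12.4 and 1.07 and Prox1 3.05 and 3.22, both above every other library. Flt4 was lower there than in type I libraries. The summed FPKM of 3 red cell markers was highest in type I libraries, where it reached 140.0, and was listed at 0 in 1 type III library. That of 10 genes of the response to tissue dissociation was 3001 to 4366.

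All 8 genes were expressed in all 3 subsets. Plvap ranked between 3rd and 25th of 23943 symbols in every library, and each of the 8 genes stood above at least 91.3% of the symbols in every library. Only 11709 of these symbols reached an FPKM of 1 in 2 or more libraries. The lowest rank was 2075, that of Cav2 in type III replicate 2. FPKM is scaled by transcript length, so levels can be set beside each other between genes. In type I ECs the order of the means ran from Plvap at an FPKM of 807 through Cav1 (436), Ptrf (379), Ehd2 (205), Sdpr (169) and Prkcdbp (111) to Cav2 (59.0) and Ehd4 (55.4). Of the neighbours in this order, Cav1 and Ptrf overlapped in their libraries, and so did Ehd2 and Sdpr and also Cav2 and Ehd4. In type II ECs the order was Plvap (1230.0), Cav1 (299), Ptrf (287), Ehd2 (155), Ehd4 (146), Prkcdbp (104), Sdpr (104) and Cav2 (40.8), where Cav1 overlapped with Ptrf, Ehd2 with Ehd4 and Prkcdbp with Sdpr. In type III ECs the order was Plvap (1904), Ptrf (228), Cav1 (156), Ehd4 (148), Ehd2 (125), Prkcdbp (119.6), Sdpr (105) and Cav2 (28.8), and the libraries overlapped between Cav1 and Ehd4, Ehd2 and Prkcdbp, and Prkcdbp and Sdpr. By the means, Ehd4 thus stood last in type I and above Ehd2 and all cavins but Ptrf in type III, while Ptrf stood above Cav1 only in type III.

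**Figure D1:**
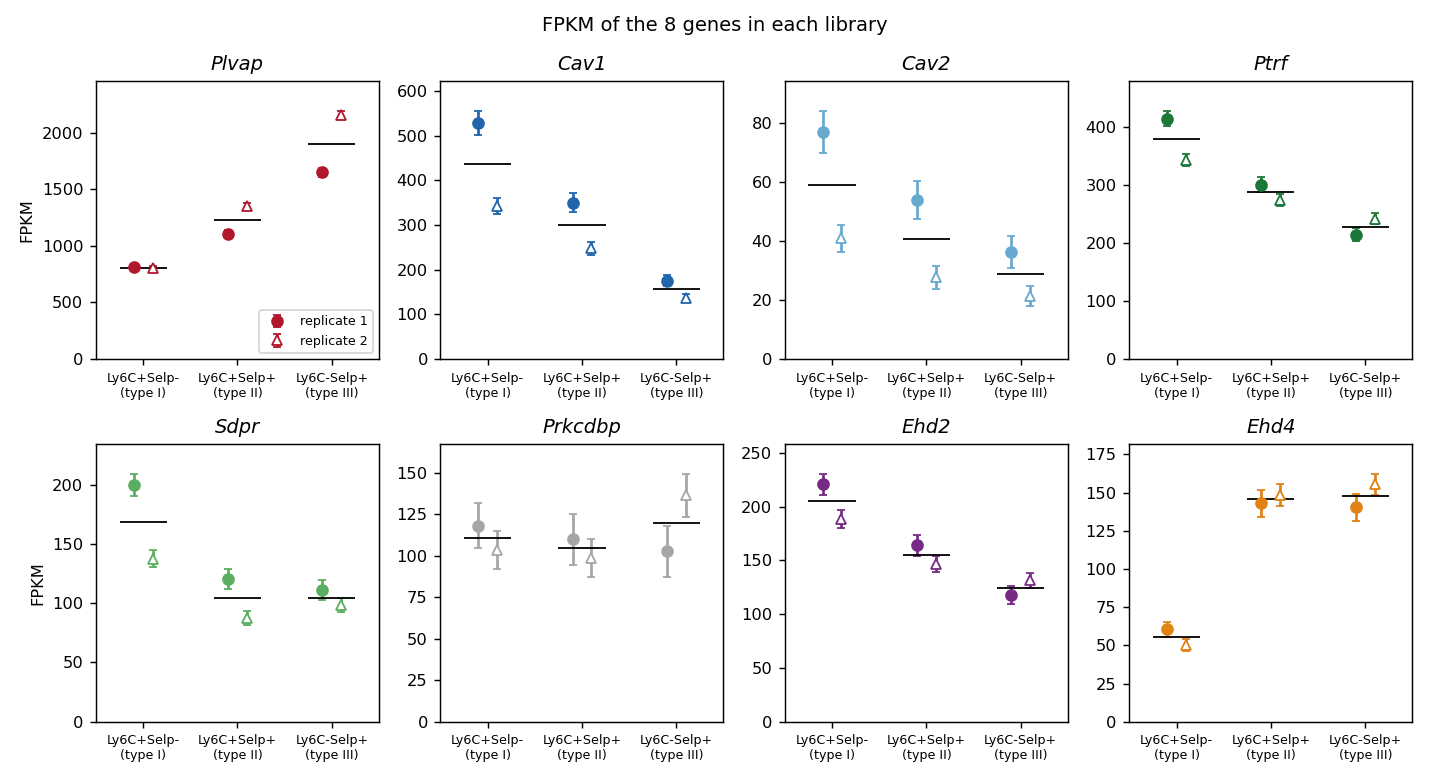
FPKM (vertical axes, starting at 0) of the 8 genes in each library, by subset. Filled circles are replicate 1, open triangles replicate 2, vertical bars the authors' 95% intervals and black lines the mean of the 2 libraries. Plvap stands at about 807 in type I and 1904 in type III ECs, Ehd4 is low only in type I ECs, and Prkcdbp overlaps between all subsets.

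Promoter windows from RefSeq on GRCm38.p6, from 250 bases before to 50 after a start, were at hand for 6 of the 8 genes, where Ptrf and Sdpr are named Cavin1 and Cavin2; Plvap and Prkcdbp had none. They are shown for the pair with the closest profiles, Ptrf and Ehd2, and for the genes that changed, Cav1 and Ehd4. For Ptrf and Cav1, which had 2 windows each, the most upstream one is used. Capitals mark letters matched on either strand by GGAAG (ETS core), GGGNNNNNCC (NF-kB), ACAAT (SOX), GTGGGAA (RBPJ) or CACCC (KLF), where matches may overlap.
Ptrf (chr11:100970568-100970867, minus strand): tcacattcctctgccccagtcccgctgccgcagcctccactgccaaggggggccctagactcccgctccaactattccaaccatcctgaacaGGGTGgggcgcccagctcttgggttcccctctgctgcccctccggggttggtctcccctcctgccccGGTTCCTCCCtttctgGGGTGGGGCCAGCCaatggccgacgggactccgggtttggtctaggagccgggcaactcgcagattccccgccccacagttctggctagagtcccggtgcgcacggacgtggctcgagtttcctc
Ehd2 (chr7:15967486-15967785, minus strand): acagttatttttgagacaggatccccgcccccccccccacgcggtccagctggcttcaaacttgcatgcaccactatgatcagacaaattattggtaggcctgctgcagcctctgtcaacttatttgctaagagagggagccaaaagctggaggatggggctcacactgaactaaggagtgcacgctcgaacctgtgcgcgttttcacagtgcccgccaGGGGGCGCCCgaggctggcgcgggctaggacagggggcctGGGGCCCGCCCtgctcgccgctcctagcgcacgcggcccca
Cav1 (chr6:17306085-17306384, plus strand): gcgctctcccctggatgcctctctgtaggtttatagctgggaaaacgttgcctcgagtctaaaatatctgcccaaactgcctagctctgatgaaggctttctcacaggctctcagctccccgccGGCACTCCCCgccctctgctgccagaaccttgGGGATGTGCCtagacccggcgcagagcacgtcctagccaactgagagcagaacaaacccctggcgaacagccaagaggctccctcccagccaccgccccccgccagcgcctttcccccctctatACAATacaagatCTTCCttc
Ehd4 (chr2:120154526-120154825, minus strand): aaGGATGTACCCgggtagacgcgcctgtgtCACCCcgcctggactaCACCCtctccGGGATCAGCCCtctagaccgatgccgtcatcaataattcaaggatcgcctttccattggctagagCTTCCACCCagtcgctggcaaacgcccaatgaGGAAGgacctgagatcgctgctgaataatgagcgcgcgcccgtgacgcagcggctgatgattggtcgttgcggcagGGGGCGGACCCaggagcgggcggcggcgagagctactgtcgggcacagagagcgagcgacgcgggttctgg
The Ehd2 window held 5 matches of the NF-kB letters, some of them overlapping, and none of the others. The Ptrf window held 3 of NF-kB and 2 of KLF. The NF-kB letters that the pair shared were also in the windows of Cav1, Cav2 and Ehd4, and not in that of Sdpr. The Cav1 window held 1 of ETS, 2 of NF-kB and 1 of SOX, and the Ehd4 window 2 of ETS, 6 of NF-kB and 3 of KLF. The other Cav1 window held 1 match of KLF and none of the other letters. That of Ptrf held the same numbers of matches as the window shown. These letters are common. Of 32851 windows of all genes, 71.4% held the ETS core, 50.8% the NF-kB letters, 57.5% those of KLF, 31.0% those of SOX and 6.38% those of RBPJ, which none of the 6 genes held. The matches are a description of the letters and not of binding.

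Between type I and type III ECs, the diaphragm gene Plvap and the EHD gene Ehd4 rose and the caveolin gene Cav1 fell. These were the 3 of 8 genes that passed an adjusted p of 0.05 in limma, fitted over all 11709 genes above the filter on low values, of which all 8 were part, against 4.13% of all genes tested (2.09% higher and 2.04% lower). For 7 members the type I and type III libraries did not overlap, against 37.9% of all genes tested, with Plvap and Ehd4 higher in type III ECs (20.7% of all genes) and 5 members lower (17.1%). Since each library held RNA pooled from many sorted cells, fewer cells of a type and less RNA per cell cannot be told apart. The median log2 difference of the 8 genes was -0.68, beside 0.082 over all genes. When the libraries were rescaled, to a common sum of FPKM, by median ratios or by quantiles, 6 of the 8 genes passed in each case. Ptrf, Sdpr and Ehd2 then passed as well, all 3 lower in type III ECs. In the same order, the median difference over all genes went from 0.082 to -0.050, 0.0070 and 0.0072. Of all genes called, the share that was higher in type III ECs went from 50.6% to 41.3%, 46.1% and 45.3%. Leaving out one or the other library of type III ECs, none of the 8 genes passed, and without type I replicate 1 Ehd4 alone did.

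Plvap encodes the protein of which the diaphragms of fenestrae, caveolae and transendothelial channels are made. It had an FPKM of 809.7 and 805 in the type I libraries, 1109 and 1351 in type II and 1649.7 and 2158 in type III. The 3 subsets did not overlap, and the libraries of type III ECs were the highest. From type I to type III ECs the mean rose 2.36-fold, a difference of 1.22 in log2(FPKM + 1) with a standard error of 0.25 (limma adjusted p = 0.026). The difference was 1.03 within replicate 1 and 1.42 within replicate 2. It kept its direction in each of the 6 fits that left out 1 library, at 1.03 to 1.42, but passed in none of them (limma adjusted p between 0.054 and 0.198). Between type I and type II ECs the log2 difference was 0.60 (95% interval 0.039 to 1.16, limma adjusted p = 0.61), and between type II and type III ECs it was 0.62 (0.064 to 1.18, limma adjusted p = 0.45). Neither step passed on its own, although the libraries did not overlap. Plvap is not among the genes that the study lists as different between type I and type III ECs by its own test, Cuffdiff. On mm9 the gene lies on the minus strand of chromosome 8 from 74021652 to 74035668, with 6 exons in GENCODE mouse release 1. Gtpbp3, on the other strand, overlaps it there. Whether the authors counted by strand is not given in the sources used here, but Gtpbp3 had an FPKM of at most 3.80 in any library.

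Caveolin-1 is the caveolin without which endothelial cells form no caveolae. Cav1 had an FPKM of 529 and 343 in type I libraries, 350.4 and 248 in type II and 175 and 137 in type III. The type III libraries were below all others, and the other subsets overlapped, since the lower type I library was below the higher type II library. The mean was 2.79-fold lower in type III than in type I ECs, and log2(FPKM + 1) fell by 1.45 (standard error 0.30, limma adjusted p = 0.027), with -1.59 within replicate 1 and -1.32 within replicate 2. The call was lost without type I replicate 1 (limma adjusted p = 0.098), without type III replicate 1 (0.091) and without type III replicate 2 (0.171). From type I to type II ECs the difference was -0.53 (95% interval -1.20 to 0.14, limma adjusted p = 0.78), and from type II to type III ECs it was -0.92 (-1.59 to -0.26, limma adjusted p = 0.33), which passed under each of the 3 rescalings (limma adjusted p between 0.028 and 0.043).

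Caveolin-2 assembles with caveolin-1 and depends on it to reach the cell surface. Cav2 was the lowest caveolar coat gene, with an FPKM of 77.0 and 41.0 in type I libraries, 53.9 and 27.7 in type II and 36.2 and 21.3 in type III. Both type III libraries were below both type I libraries, and type II overlapped with each of the others. The log2 difference between type III and type I ECs was -0.99 (95% interval -1.93 to -0.045), with a limma adjusted p of 0.32. Cav2 is among the genes that the study lists as different between these subsets by its own test, Cuffdiff. Replicate 1 was 1.88, 1.95 and 1.70 times as high as replicate 2 in the 3 subsets, while the mean was 2.05 times as high in type I as in type III ECs. Within a library, Cav1 was 6.87 and 8.36 times as high as Cav2 in type I, 6.51 and 8.95 times in type II and 4.85 and 6.40 times in type III ECs.

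The caveolin genes are neighbours on chromosome 6 of mm9, both on the plus strand, with Cav2 from 17231185 to 17239130 and Cav1 from 17256335 to 17291328 and 17204 bases between them. GENCODE places the antisense transcript Gm15581 across both, and it was not analysed here. The window of 500 kb on either side holds 8 genes with the caveolins counted, of which 7 were tested. Between type I and type III ECs 3 of the 7 passed, Cav1 lower and Tes and Met higher, against 2.04% of all genes tested lower and 2.09% higher. Tes, which encodes testin, a LIM domain protein of focal adhesions, had an FPKM of 8.67 and 6.83 in type I, 10.9 and 13.7 in type II and 36.4 and 28.4 in type III libraries, and rose by 1.93 in log2(FPKM + 1) from the first to the last (standard error 0.28, limma adjusted p = 0.0057). Met, the receptor of hepatocyte growth factor, lay on the Cav1 side and had 0.937 and 1.15, 3.31 and 3.58, and 8.74 and 6.13. It rose by 2.03 between the same subsets (standard error 0.33, limma adjusted p = 0.0094). Capza2, St7 and D830026I12Rik did not pass (limma adjusted p between 0.76 and 0.92), and Tfec was below the filter, with an FPKM of at most 0.850. The call of Tes was lost without type III replicate 1 (limma adjusted p = 0.060), and that of Met without that library (0.091) or without one or the other library of type I ECs (0.055 and 0.054).

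Cavin-1, the product of Ptrf, is the cavin that caveolae cannot form without. Ptrf had an FPKM of 414 and 343 in type I libraries, 300.3 and 274 in type II and 214 and 242 in type III. The 3 subsets did not overlap, with type I the highest. The log2 difference between type III and type I ECs was -0.73 (95% interval -1.24 to -0.21, limma adjusted p = 0.14). It lay between -0.95 and -0.82 with limma adjusted p between 0.0061 and 0.037 under the 3 rescalings. The gene lies on chromosome 11 of mm9 from 100818051 to 100831931.

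Cavin-2, the product of Sdpr, helps to bend the membrane of the pit. Sdpr had an FPKM of 200.1 and 138 in type I libraries, 121 and 87.6 in type II and 111 and 98.3 in type III. Both type I libraries were above the other 4, and types II and III overlapped. The log2 difference from type I was -0.69 in type II ECs (limma adjusted p = 0.58) and -0.66 in type III ECs (limma adjusted p = 0.31), and only the latter passed under the 3 rescalings (limma adjusted p between 0.024 and 0.039). Between types II and III the difference was 0.025 (95% interval -0.59 to 0.64), and its sign turned under each rescaling. On mm9 Sdpr spans 51345970 to 51359804 of chromosome 1.

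Cavin-3, the product of Prkcdbp, is a cavin that also binds protein kinase C delta. Unlike the other coat genes, Prkcdbp showed no order of the subsets, with an FPKM of 118 and 103 in type I libraries, 110.0 and 99.0 in type II and 103 and 136 in type III. All 3 subsets overlapped. The log2 difference between type III and type I ECs was 0.10 (95% interval -0.45 to 0.64, limma adjusted p = 0.93), and the sign turned when the libraries were set to a common sum of FPKM (-0.053). Set against Ptrf in the same library, which needs no scaling between libraries, Prkcdbp stood at 0.285 and 0.301 in type I, 0.366 and 0.361 in type II and 0.479 and 0.565 in type III ECs. These ratios did not overlap between the subsets. Of the summed FPKM of the 3 cavins, Prkcdbp made up 16.1% and 17.7%, 20.7% and 21.5%, and 24.0% and 28.6%, while Sdpr took between 19.0% and 27.3% with overlap between all subsets. Prkcdbp is a short gene on chromosome 7 of mm9, from 112629130 to 112630711.

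EHD2 is an ATPase that assembles into rings at the neck of caveolae. Ehd2 had an FPKM of 221 and 189 in type I libraries, 164 and 147 in type II and 118 and 132 in type III. As for Ptrf, the subsets did not overlap and type I was the highest. The log2 difference between type III and type I ECs was -0.71 (95% interval -1.22 to -0.20, limma adjusted p = 0.15). It passed under the 3 rescalings at -0.87 to -0.80 (limma adjusted p between 0.021 and 0.047). On mm9 Ehd2 lies on chromosome 7 from 16534336 to 16552884.

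EHD4 is a relative of EHD2 that is known from early endosomes and the recycling of receptors. Ehd4 had an FPKM of 60.5 and 50.4 in type I libraries, 143 and 149 in type II and 141 and 155 in type III. Every library of types II and III was above both type I libraries, and types II and III overlapped. Ehd4 rose by 1.40 in log2(FPKM + 1) from type I to type III ECs (standard error 0.23, limma adjusted p = 0.0088) and by 1.39 from type I to type II ECs (standard error 0.23, limma adjusted p = 0.046). It was the 1 member of 8 called in the latter comparison, against 0.384% of all genes tested, and the 1 member with any difference among the 3 subsets in limma's moderated F test (adjusted p = 0.015, against 2.86% of all genes), where Cav1 and Plvap had an adjusted p of 0.075 and 0.077. The first call was lost without type III replicate 1 (limma adjusted p = 0.062) or replicate 2 (0.087), and the second in each of the 6 fits without 1 library (limma adjusted p between 0.061 and 0.451), with differences of 1.26 to 1.52. Between types II and III the difference was 0.019 (95% interval -0.49 to 0.53), and it was -0.21 to -0.12 under the 3 rescalings. Within a library, the ratio of Ehd4 to Ehd2 was 0.274 and 0.267 in type I, 0.872 and 1.01 in type II and 1.19 and 1.18 in type III ECs. Ehd2 was therefore the more abundant of the pair in type I ECs and Ehd4 in type III ECs. On mm9 Ehd4 lies on chromosome 2 from 119915223 to 119980311.

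**Figure D2:**
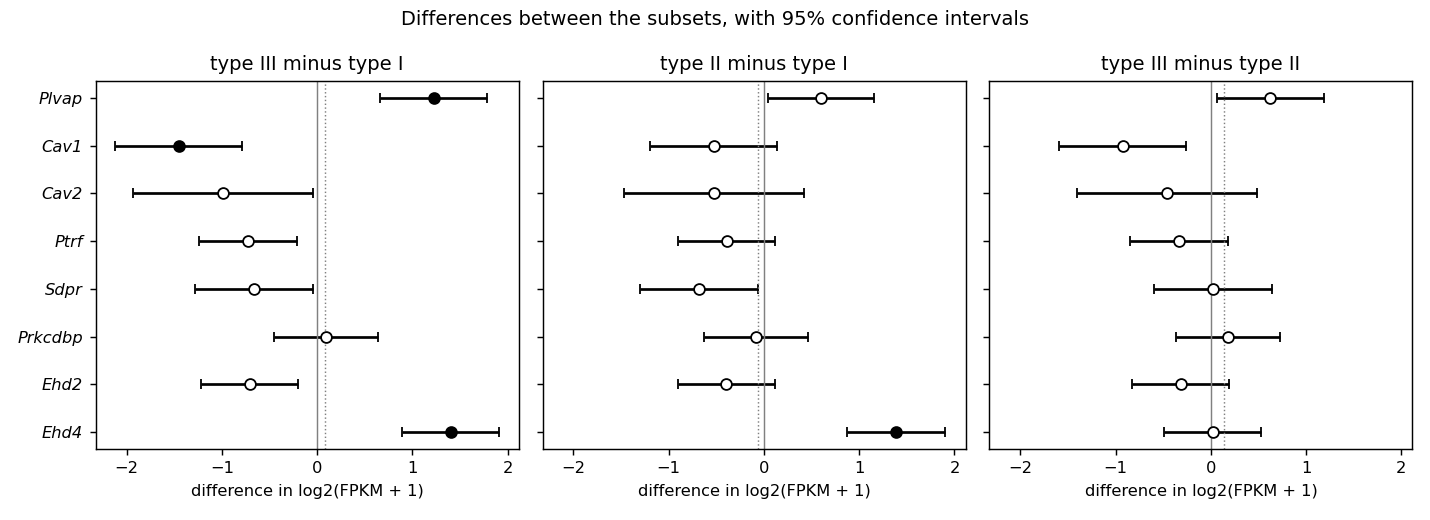
Differences in log2(FPKM + 1) between subsets for the 8 genes, from limma, with 95% confidence intervals. Filled points passed an adjusted p of 0.05, the solid line marks 0 and the dotted line the median of all genes tested. Plvap, Cav1 and Ehd4 are filled in the comparison of type III with type I, Ehd4 alone in that of type II with type I, and none in that of type III with type II.

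Between type I and type II ECs, the libraries of 5 of the 8 genes did not overlap, against 33.6% of all genes tested, with Plvap and Ehd4 higher in type II ECs (13%) and Ptrf, Sdpr and Ehd2 lower (20.6%). Between type II and type III ECs, limma called none of the 8 genes, against 0.214% of all genes tested (0.0939% higher and 0.12% lower). Of the 8, 2 had an unadjusted p under 0.05, Cav1 and Plvap, as had 1167 of the 11709 genes tested. There the libraries of 4 members did not overlap, against 41% of all genes, with Plvap higher in type III ECs (27.7%) and Cav1, Ptrf and Ehd2 lower (13.3%). In this last comparison the median of all genes was itself 0.14, so that relative to it Ehd4 and Sdpr, at 0.019 and 0.025, stood below the median of all genes. The type II means of Ehd4 and Sdpr, 146 and 104, were close to the type III means, 148 and 105, while the type II means of Plvap and Cav1, 1230.0 and 299, lay between those of the other subsets.

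The profiles of the 8 genes over the 6 libraries were compared after each was centred on its own mean, by the root mean square of the differences in log2(FPKM + 1). Ptrf and Ehd2 were the closest pair, at 0.019. Each was also the nearest to the other among 4195 genes with a mean FPKM of at least 10, and for both the next gene was Sptbn1, a spectrin of the membrane skeleton, at 0.049 and 0.051. The ratio of Ehd2 to Ptrf accordingly stayed between 0.533 and 0.551 in the 6 libraries, while the means of Ptrf and Ehd2 were 1.66 and 1.64 times as high in type I as in type III ECs. Cav1 and Cav2 were 0.286 apart. The nearest genes to Cav1 were Map4k3 (0.084) and Klf10 (0.085), and to Cav2 Mertk (0.117) and Ccrl2 (0.163). Plvap was nearest to Zfp703 (0.053) and Bcr (0.0998), Ehd4 to Gpr182 (0.089) and Syt15 (0.090), Sdpr to Creb3 (0.087) and Eml1 (0.091), and Prkcdbp to Stra13 (0.043) and Dnpep (0.046). Cav1 and Ehd4 were the members farthest apart, at 1.21. These are distances over 6 libraries of 3 subsets, and no test was made of them.

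**Figure D3:**
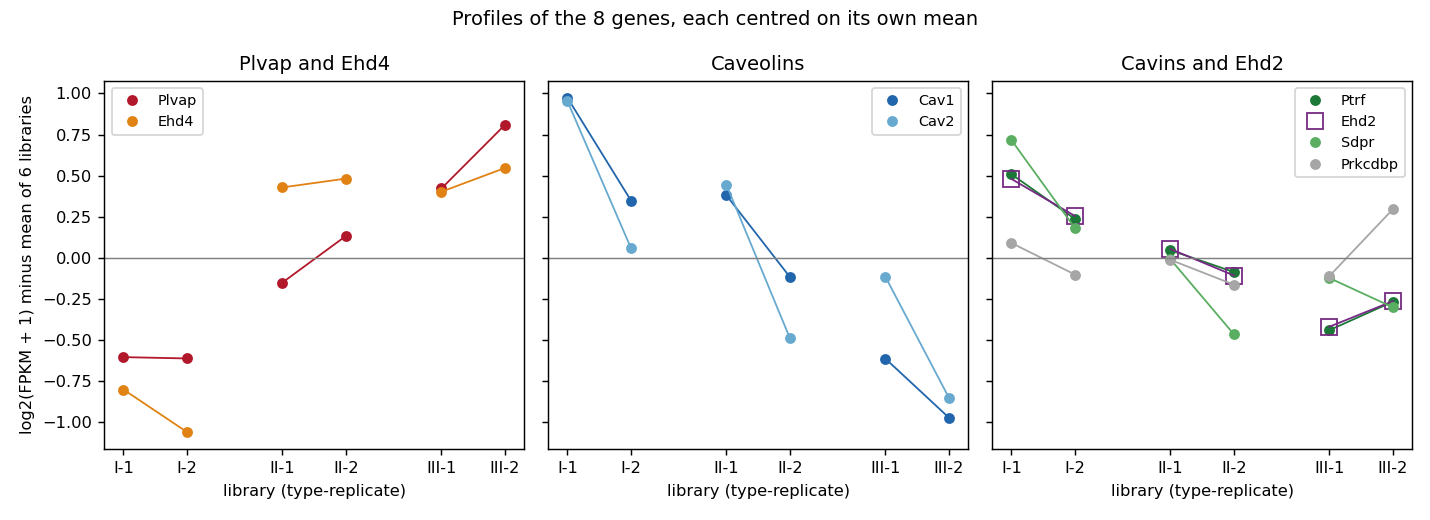
log2(FPKM + 1) of each gene in each library minus its mean over the 6 libraries, in 3 panels of genes. Lines join the 2 libraries of a subset. The open squares of Ehd2 lie on the points of Ptrf in every library, and Ehd4 is at its upper level in types II and III. By their means Cav1 and Cav2 descend from type I to type III. Libraries of types I and II overlap for both genes, and those of types II and III for Cav2.

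The ratio of the diaphragm gene to the caveolin within a library summarises the opposite changes and does not depend on the scaling between libraries. Plvap was 1.53 and 2.35 times as high as Cav1 in type I, 3.17 and 5.45 times in type II and 9.40 and 15.8 times in type III libraries. The subsets did not overlap. Cav1 also stood lower against the cavin: it was at ratios to Ptrf of 1.28 and 0.999 in type I, 1.17 and 0.905 in type II and 0.820 and 0.565 in type III ECs, where the last lay below the others. With 2 libraries against 2, an exact permutation test of such a ratio cannot give a two-sided p below 0.333, so none is given.

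**Figure D4:**
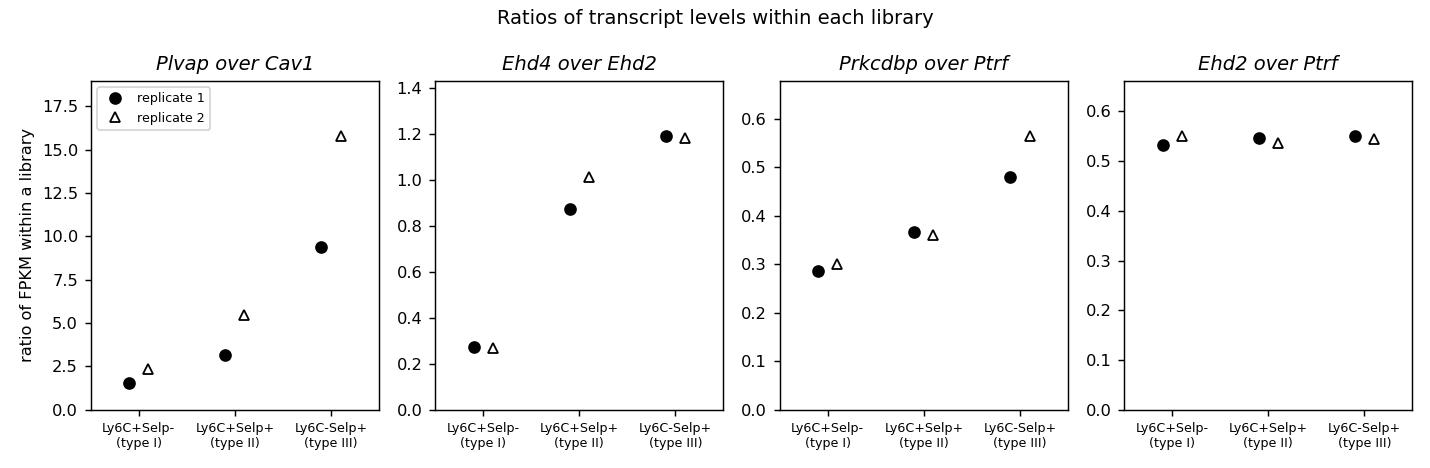
Ratios of FPKM within each library (vertical axes, starting at 0) by subset; filled circles are replicate 1 and open triangles replicate 2. Plvap over Cav1, Ehd4 over Ehd2 and Prkcdbp over Ptrf separate the subsets, and Ehd2 over Ptrf lies between 0.533 and 0.551 throughout.

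Markers of pericytes, cells that are themselves rich in caveolae, moved with the coat genes in part. Of 8 such markers, 7 were tested. Between type I and type III ECs Pdgfrb fell by 1.85 in log2(FPKM + 1) (limma adjusted p = 0.013), while Tagln rose by 1.60 (limma adjusted p = 0.011). Thus 1 was called lower and 1 higher, against 2.04% and 2.09% of all genes tested. The libraries did not overlap for 6 of the 7, with 2 higher and 4 lower in type III ECs, against 20.7% and 17.1% of all genes tested. Cnn1, of contractile smooth muscle, was near 0, with an FPKM of at most 1.01. Rgs5 had an FPKM of 346 and 114 in type I, 284 and 137 in type II and 48.6 and 45.4 in type III libraries, and Pdgfrb had 39.0 and 24.2, 33.5 and 25.1, and 6.40 and 9.43. Both were higher in replicate 1 than in replicate 2 of type I and type II ECs, as were all 6 caveolin, cavin and Ehd2 genes and the median gene tested, whose ratio of replicate 1 to replicate 2 was 1.39 and 1.12 there. Des went the same way, while Cspg4, Acta2, Myh11 and Tagln were higher in replicate 1 of type I ECs only. In the type II libraries these markers had 3.36 and 5.82, 29.5 and 37.0, 26.7 and 40.8, and 114 and 137. The part of pericytes in the difference of the caveolar genes was not tested. The calls of Pdgfrb and Tagln were each lost in 2 of the 6 fits without 1 library, Pdgfrb without replicate 1 of type I (limma adjusted p = 0.073) or of type III (0.111) and Tagln without replicate 2 of type I (0.054) or of type III (0.096). For 5 of the 10 genes of the dissociation response, the libraries did not overlap and were lower in type III than in type I ECs. For 1 they were higher, against 17.1% lower and 20.7% higher of all genes tested. Dusp1 alone of the 10 was called, against 4.13% of all genes, and fell by 1.25 (limma adjusted p = 0.015). Its call was lost without type II replicate 2 (limma adjusted p = 0.051) or one or the other type III library (0.168 and 0.066), and its part was not tested either.

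The other genes of the system were described by 4 lists. Of 14 relatives of the caveolar coat, 11 were tested. Between types I and III and between types I and II 1 passed, against 4.13% and 0.384% of all genes tested. This was Ehd3, an EHD protein of the endocytic recycling route, which had an FPKM of 3.96 and 3.32 in type I, 18.3 and 29.9 in type II and 38.6 and 42.9 in type III libraries. It rose by 2.40 in log2(FPKM + 1) from type I to type II (standard error 0.30, limma adjusted p = 0.014) and by 3.17 to type III ECs (standard error 0.30, limma adjusted p = 0.00064), and the latter passed in each of the 6 fits without 1 library. The former was lost without type I replicate 2 (limma adjusted p = 0.117) or type II replicate 2 (0.139). Ehd1, the remaining EHD gene, had 38.2 and 38.3, 34.4 and 25.9, and 20.2 and 36.4 and did not pass (limma adjusted p = 0.61 between type I and type III). The 4 EHD genes thus did not move together, with Ehd3 and Ehd4 higher in types II and III and Ehd2 lower there without passing (Ehd4 and Ehd2 differed in the same directions from type I under each rescaling). Flna, the actin crosslinker filamin A, was the highest of the list at 54.6 to 79.4 and did not pass. Cav3 and Murc (cavin-4), the caveolin and cavin of muscle, were listed at 0 in all libraries.

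**Figure D5:**
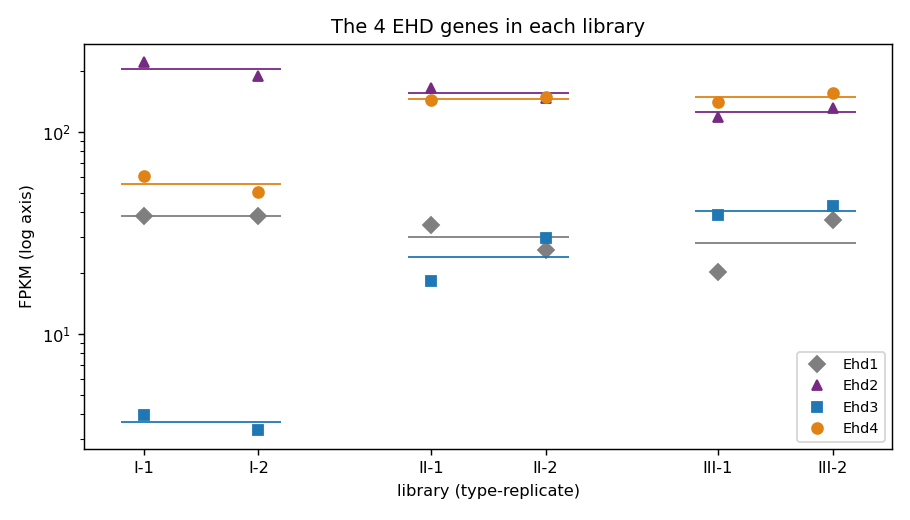
FPKM of Ehd1, Ehd2, Ehd3 and Ehd4 (log axis) in each library, with lines at the mean of the 2 libraries of a subset. Ehd3 goes from 3.64 in type I to 40.8 in type III, Ehd4 from 55.4 to 148, and Ehd2 from 205 to 125.

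Among 14 genes of caveolar cargo and partners, 13 were tested. Between type I and type III ECs 1 rose and 2 fell, against 2.09% and 2.04% of all genes tested, with a median of -0.38. The insulin receptor gene Insr, whose protein is found in caveolae, had 9.17 and 9.38 in type I, 14.1 and 18.4 in type II and 27.0 and 33.6 in type III libraries and rose by 1.60 (standard error 0.27, limma adjusted p = 0.011). Kdr, the VEGF receptor through which VEGF induces fenestrae, went from 189 ± 22.9 (SD, n = 2) to 66.8 ± 4.78 (SD, n = 2), a difference of -1.49 (limma adjusted p = 0.0080), and Nrp1, its coreceptor, from 147 ± 47.6 (SD, n = 2) to 49.9 ± 8.26 (SD, n = 2), a difference of -1.51 (limma adjusted p = 0.026). The calls of all 3 were lost without one or the other library of type III ECs (limma adjusted p between 0.053 and 0.158), and also without type I replicate 2 for Insr (0.054) and type I replicate 1 for Nrp1 (0.103). Cd36 and Scarb1, scavenger receptors for fatty acids and lipoproteins, were the highest of the list, with differences of -1.67 and -0.51 that did not pass (limma adjusted p = 0.056 and 0.40), though that of Cd36 passed under the 3 rescalings (limma adjusted p between 0.0083 and 0.0089). In the other comparisons limma called none of the 13, and 5 and 3 had an unadjusted p under 0.05 between types I and II and between types II and III, against 7.47% and 9.97% of all genes tested. Of the 13 partners of EHD proteins in recycling, led by Arf6 and Rab11a, limma called none in any comparison, while 2, 1 and 0 had an unadjusted p under 0.05 in the comparisons of types I and III, I and II, and II and III, against 14.0%, 7.47% and 9.97% of all genes tested. The median differences were -0.12, -0.086 and 0.13 in that order. Of the 26 genes of clathrin-mediated endocytosis, the other main route of uptake, limma likewise called none, and 4, 2 and 3 had an unadjusted p under 0.05, against the same shares of all genes. The median differences were 0.058, -0.12 and 0.18, and Clta and Picalm, a clathrin light chain and a clathrin assembly protein, were the highest.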

How the data were processed

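RNA of 6 libraries was sequenced, 2 from each of 3 sorted thymic EC subsets, and replicates are numbered as in the labels. Per the submitters' processing notes, reads were processed with CASAVA 1.8, TopHat2 2.0.10, Cufflinks 2.1.1 and Cuffdiff on mm9. The gene annotation and any use of strand are not given in the sources used here. The authors deposited FPKM per gene and library, with the bounds of a 95% interval, and the values were not scaled between libraries here. Rows with the same symbol were summed, and 95 rows per library that are not on mouse chromosomes were left out. log2(FPKM + 1) was fitted for the 11709 genes that reached 1 FPKM in 2 or more libraries, with limma 3.58.1 (R 4.3.3) with a mean trend over the 3 groups, with Benjamini-Hochberg adjustment over all genes and a threshold of 0.05. Folds are ratios of mean FPKM, and log2 differences understate the changes of low genes. The study tested with Cuffdiff, which could not be run on FPKM. Its list of genes that differed between type I and type III ECs holds Cav1, Cav2 and Ehd4. Plvap, Ptrf, Sdpr, Prkcdbp and Ehd2 are not on that list. Cav2, Cd36 and Rgs5 are on it but were not called by limma here, while limma called Plvap. The script was tested on simulated data.

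The 8 genes and all lists were chosen with earlier results of these data known. Named were the 8 genes, every gene of a list past the threshold and its 2 highest, the 2 genes nearest in profile to each member, and the genes within 500 kb of Cav1 and Cav2. Motifs and neighbours are descriptions. Intervals on single libraries cover counting error only, as estimated by the authors.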

Additional observations from a re-analysis of the deposited data

How the results depend on the processing

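Of the 408 recomputed differences of the 8 genes (17 alternatives, 8 genes, 3 comparisons), 348 kept their direction and side of the threshold, 27 kept the direction and lost the call, 16 gained it and 17 changed sign. The causes were not tested. Only the scaling and the block raised the number of the 8 genes called between types I and III from 3. It was 6 with a common sum of FPKM, 6 with median ratios and 6 with quantiles, 1 with no filter, 1 without the mean trend, and 0 to 2 in fits without 1 library. Between types I and II it went from 1 to 0 with pseudocounts of 0.1 or 5, no filter, no trend, the 4 libraries alone, and any library left out. Between types II and III it went from 0 to 1 under each scaling. For any difference among the 3 types it went from 1 to 2 with a filter of 5 FPKM, 2 with robust limma, 3, 2 and 3 with the 3 scalings in the order above, 0 with no trend, and 0 to 1 without 1 library. Over all genes, the calls between types I and III (484) numbered 206 to 403 without 1 library. Between types I and II (45) they were 97, 96 and 102 under the scalings, 12 with no filter, 15 with no trend and 12 to 33 without 1 library. Between types II and III (25) they were 108, 84 and 89 under the scalings, 16 with a pseudocount of 0.1, 0 with no filter, 9 with no trend, 7 with the 4 libraries alone and 4 to 12 without 1 library. For any difference (335) they were 133 with no filter and 117 to 262 without 1 library. Under the scalings, the share of calls that were higher moved from 50.6% to between 41.3% and 46.1% (types I and III). It moved from 84.4% to between 70.8% and 76.3% (types I and II) and from 44% to between 16.7% and 27.4% (types II and III).

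The sign changed in differences near 0. Between types II and III, in the order sum, median ratio and quantile, Sdpr was at -0.20, -0.12 and -0.14 and Ehd4 at -0.21, -0.13 and -0.12. With the common sum Prkcdbp was at -0.044 there and at -0.053 between types I and III, and with quantiles at 0.0038 between types I and II. Over the fits without 1 library, the differences that changed sign ranged from -0.18 to 0.014 (Prkcdbp, types I and II), from -0.11 to 0.30 (Prkcdbp, types I and III), from -0.023 to 0.38 (Prkcdbp, types II and III), from -0.93 to 0.0069 (Cav2, types II and III), from -0.053 to 0.091 (Ehd4, types II and III) and from -0.20 to 0.25 (Sdpr, types II and III).

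With the replicate block, the calls among the 8 genes were 6 between types I and III, where Cav2 (limma adjusted p = 0.0099), Ptrf (0.042) and Ehd2 (0.041) passed beside Plvap, Cav1 and Ehd4, 1 between types I and II, 1 between types II and III (Cav1, 0.037) and 4 for any difference, and over all genes 967, 179, 229 and 771. The pairs of replicates share only a number: the deviations from the group means correlated at 0.31, 0.20 and 0.18 across 11709 genes in the 3 comparisons, and with 2 pairs the numbers were not taken as pairing.

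With 2 libraries a subset, the interval on a log2 difference of a member spanned about 0.5 or more on either side. Larger differences could also miss the threshold on the adjusted p. Between types I and III, those of Cav2 (-0.99) and Ptrf (-0.73) had intervals clear of 0 and did not pass. A gene that did not pass was therefore not shown to be unchanged.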

Other observations

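Within each subset, Cav2, Cav1 and Sdpr were higher in replicate 1 than in replicate 2. The ratio of replicate 1 to replicate 2 was 1.88, 1.95 and 1.70 for Cav2, 1.54, 1.41 and 1.29 for Cav1, and 1.45, 1.38 and 1.13 for Sdpr in types I, II and III. Plvap had 1.01, 0.821 and 0.764. The pericyte marker Rgs5 had 3.04, 2.08 and 1.07. Other markers of pericytes or smooth muscle, Cspg4, Acta2, Myh11 and Tagln, were higher in replicate 1 in type I ECs only. The median ratio over the 11709 genes tested was 1.39, 1.12 and 1.16, as the values are not scaled between libraries, so Sdpr was below it in type III ECs.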
